A study of Mus musculus with 3 samples.

Results

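The genes described here are 8 Fc receptor genes of the mouse, the IgG receptors Fcgr1, Fcgr2b, Fcgr3 and Fcgr4, the signalling chain Fcer1g, the IgE receptor Fcer2a, the IgM receptor Fcmr and the IgG carrier Fcgrt. They were chosen by symbol and no measured value entered the rule, but earlier results of these data were known. All 8 were found among the 31053 genes of the deposited count table. The study measured blood leukocytes of C57/BL6J mice by droplet single-cell RNA sequencing to follow them under sleep deprivation. Its 3 groups were Con at 0 h, SD24h at 24 h and SD48h at 48 h of sleep deprivation, with 1 library per group. Each library came from the pooled leukocytes of 3 mice, freed of red cells with a lysis buffer, and aimed at about 7000 cells. The sources used here state neither age nor sex of the mice, and the SASD condition in the series text was not analysed here. The barcodes end in 1, 2 or 3, read here as libraries 1, 2 and 3. As the labels do not say which ending belongs to which group, the libraries were left unassigned, no effect of sleep deprivation was estimated, and the library numbers carry no order in time.

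Fc receptors bind the constant part of antibodies and so connect antibody to the cells that act on it. In the mouse, the activating IgG receptors Fcgr1, Fcgr3 and Fcgr4 signal through the gamma chain encoded by Fcer1g, which carries an immunoreceptor tyrosine-based activation motif (ITAM), while Fcgr2b carries an inhibitory motif in its own tail and restrains B cells and myeloid cells. Fcer2a (CD23) binds IgE with low affinity, Fcmr binds IgM, and Fcgrt (the neonatal Fc receptor) pairs with beta-2-microglobulin to return IgG and albumin from the cell interior to the blood.

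On GRCm38, with GENCODE annotation, all 8 are protein-coding genes, and 4 of them lie within 275749 bases of chromosome 1. These are Fcgr2b (chr1:170958617-170976547, minus strand), Fcgr4 (chr1:171018920-171029761, plus strand), Fcgr3 (chr1:171051174-171064935, minus strand) and Fcer1g (chr1:171229572-171234365, minus strand). Fcmr lies apart on the same chromosome (chr1:130865669-130880791, plus strand). Fcgr1 lies at chr3:96282909-96293969, Fcer2a at chr8:3681737-3694175 and Fcgrt at chr7:45092990-45103851, all on the minus strand. Fcgr2b overlaps the antisense model Gm38204 and Fcgrt the antisense model Gm45669. Fcgr2b and Fcgr3 are close paralogs in their extracellular part, so UMIs from stretches they share are uncertain.

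The 100 bases before a RefSeq start are shown for the 3 activating IgG receptors and for Fcer2a. RefSeq promoters of all 8 genes were searched for GAGGAA on either strand, the core letters bound by the myeloid and B cell factor PU.1, and for TATAAA on either strand. The sequences run 5′ to 3′ along each gene's strand on GRCm38.p6, and the capitals mark TTCCTC, which is GAGGAA on the other strand, or TATAAA in Fcer2a. The windows are chr3:96293970-96294069 (minus strand) for Fcgr1, chr1:171059404-171059503 (minus strand) for Fcgr3, chr1:171018826-171018925 (plus strand) for Fcgr4 and chr8:3694175-3694274 (minus strand) for Fcer2a.
Fcgr1: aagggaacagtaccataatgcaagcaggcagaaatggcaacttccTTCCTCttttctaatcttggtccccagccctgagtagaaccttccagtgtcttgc
Fcgr3: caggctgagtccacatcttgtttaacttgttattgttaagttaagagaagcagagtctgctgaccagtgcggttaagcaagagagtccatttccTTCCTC
Fcgr4: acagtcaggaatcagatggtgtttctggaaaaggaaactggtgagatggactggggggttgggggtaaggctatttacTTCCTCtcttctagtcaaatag
Fcer2a: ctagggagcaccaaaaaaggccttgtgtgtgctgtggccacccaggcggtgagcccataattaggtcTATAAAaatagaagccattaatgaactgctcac
The match begins 55 bases before the start in Fcgr1 and 22 in Fcgr4. Fcgr3 has 2 RefSeq starts close together, 6 and 15 bases after the beginning of the same match, and the window of the upstream start is shown. That window lies inside the GENCODE bounds of Fcgr3 given above, and 0 of its 100 bases are exon. Fcer2a has 3 RefSeq starts, of which the most upstream, shown here, holds TATAAA beginning 33 bases before it, and the other 2 hold neither motif. Fcmr, which led in B-like cells, also holds GAGGAA on the other strand, beginning 36 bases before its RefSeq start. All 100 bases of that Fcmr window are exon in the GENCODE annotation, as are 56 of the 100 bases before the Fcgr2b start. Fcgr2b, Fcer1g, Fcer2a and Fcgrt hold GAGGAA on neither strand in such a window. Of 32851 RefSeq promoters, 9.82% hold GAGGAA or its complement and 5.56% hold TATAAA or its complement in the 100 bases before the start. Each window shown holds a match. Fcgr2b and Fcer1g, also highest in a myeloid class, hold neither motif, so the windows shown tie no motif to a class. These matches are descriptions of letters and were not tested as binding sites.

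Libraries 1, 2 and 3 held 8815, 6648 and 6741 barcodes with 40807434, 30114546 and 36523283 unique molecular identifiers (UMIs), and 6864, 5775 and 5578 cells were kept. Between 17 and 23 barcode sequences were shared by any pair of libraries and 0 by all 3. Kept cells were clustered without the 8 receptor genes and named from marker lists that hold none of them. The ending "-like" marks that only RNA markers define these classes. In the neutrophil-, monocyte-, B-, T- and NK-like classes all of the class's 14 to 18 markers were detected in every library. Detection alone does not tell classes apart, as all 18 neutrophil markers were also detected in monocyte-like cells of every library. By the rule for naming, a dendritic-like class of 41, 28 and 25 cells met 4 of its 9 markers, beside 8 of the 18 monocyte markers. A cluster of 1574, 141 and 262 cells with B cell markers but leading platelet genes was set aside. The basophil and mast cell genes Fcer1a and Ms4a2 had 1 and 2 UMIs in the neutrophil-, monocyte-, B-, T- and NK-like classes together. All 8 markers of that list summed to 17.0, 17.4 and 13.4 CPM in T-like cells and to at most 10.3 CPM in the other classes named here. Library 1 stood apart: 533 of its 542 neutrophil-like cells lay in a cluster that met 9 of the 18 neutrophil markers and 8 of 10 platelet markers. Platelet markers took 1.22% of the median neutrophil-like cell's UMIs in library 1, against 0.299% and 0.253% in libraries 2 and 3.

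Levels are counts per 1000000 UMIs (CPM), from UMIs summed over all cells of a class within a library, and the values of libraries 1, 2 and 3 are always given in that order. Intervals in parentheses are exact 95% intervals (Poisson for levels, conditional binomial for ratios, Clopper-Pearson for shares of cells). They cover counting error only. With 1 library per group no test between groups exists and no p-value is given. A gene was called as led by a class when that class was highest in all 3 libraries and every interval of its ratio to the next class lay above 1.

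Of the 8 genes, 6 were led by the same class in every library, beside 20.9% of the 13068 genes with at least 20 UMIs. Fcgr1, Fcgr2b and Fcer1g were led by monocyte-like cells (5.77% of all genes were), Fcgr3 by neutrophil-like cells (5.59%), and Fcer2a and Fcmr by B-like cells (3.66%). Fcgr4 and Fcgrt had no fixed leading class. No receptor was led by T-like cells (2.47% of genes) or NK-like cells (3.43%). Leaving out library 1 or library 3 left the same 6 genes called, and leaving out library 2 added Fcgrt, led by monocyte-like cells. With only 2 libraries the rule is easier to meet. Of all genes 26.6%, 26.3% and 24.3% were called without library 1, 2 and 3.

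**Figure D1:**
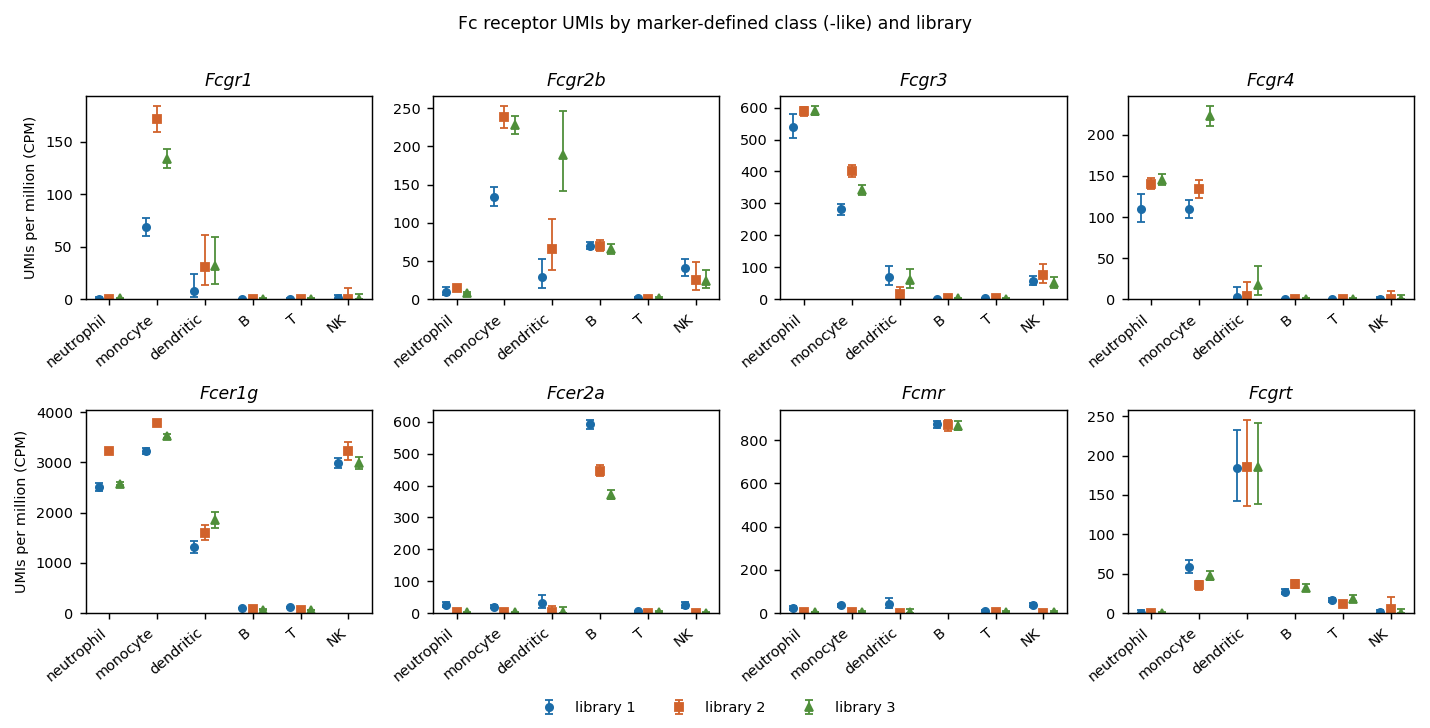
CPM (UMIs per 1000000, vertical axes starting at 0 and scaled per gene) of each Fc receptor in 6 marker-defined classes, 1 point per library with its exact 95% Poisson interval. Fcgr1 stands in monocyte-like cells and Fcer2a and Fcmr in B-like cells, Fcgr3 and Fcgr4 share neutrophil- and monocyte-like cells, and the dendritic-like points of Fcgrt lie at 184, 185 and 185 CPM.

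Fcgr1 encodes the high-affinity IgG receptor CD64 and was found mainly in monocyte-like cells among the 5 main classes. Its level there was 68.6 CPM (60.3 to 77.7), 171 (159 to 184) and 134 (125 to 143). Neutrophil-like cells held 0, 5 and 8 UMIs in 542, 3242 and 1987 cells, which is 0, 0.437 and 0.718 CPM. For 0 of 542 cells the exact upper bound is 0.678% of cells with a captured UMI. This bound sets no limit on cells expressing the gene. Monocyte-like cells exceeded the next class 88.2-fold (15.7 to 3497), 392-fold (167 to 1211) and 186-fold (94.1 to 433). The order of the other 4 classes was not settled, since no interval between neighbours excluded 1. Dendritic-like cells held 3, 8 and 9 UMIs, or 8.10, 30.9 and 31.4 CPM.

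Fcgr1 also had the widest spread over libraries of the 6 genes with a fixed leading class. Library 2 exceeded library 1 in monocyte-like cells 2.5-fold (2.16 to 2.89), and library 1 lay below both others. A UMI was found in 27.7%, 61.9% and 57.4% of monocyte-like cells, at median depths of 8657, 10985 and 11782.5 UMIs, against at most 0.252% of neutrophil-like cells. With every cell thinned to 2000 UMIs, which left out 4, 7 and 13 monocyte-like cells, the shares were 11.2%, 28.8% and 20.5%. Across all genes measured in monocyte-like cells, 26.8% had a highest library at least 1.5-fold above the lowest with an interval above 1, so a spread of this kind was common in the class. By this rule 4 of the 8 receptors, Fcgr1, Fcgr2b, Fcer2a and Fcgrt, differed between libraries in the class that led in most libraries, and without library 1 the number was 0.

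Fcgr4, an activating IgG receptor that binds IgG2a and IgG2b, was divided between monocyte- and neutrophil-like cells. Its level was 110, 134 and 223 CPM in monocyte-like cells and 110, 140 and 146 CPM in neutrophil-like cells. In libraries 1 and 2 the classes lay within counting error of each other, with neutrophil-like cells at 1.0-fold (0.83 to 1.20) and 1.05-fold (0.95 to 1.15) the monocyte-like level. In library 3 monocyte-like cells were higher, 1.53-fold (1.42 to 1.65). This direction turned under another scaling, the trimmed mean of M-values (TMM), with 123, 263 and 310.0 scaled CPM in neutrophil-like cells and 93.4, 120 and 199 in monocyte-like cells. No UMI of Fcgr4 was found in 296, 82 and 156 NK-like cells, with exact upper bounds of 1.24%, 4.40% and 2.34% of cells with a captured UMI. B- and T-like cells stayed at or below 0.867 CPM. Between libraries, monocyte-like cells of library 3 had 2.03-fold (1.82 to 2.28) and neutrophil-like cells 1.32-fold (1.13 to 1.56) the level of library 1. Shares of cells with a UMI were 39.8%, 41.0% and 69.0% in monocyte-like cells and 26.4%, 35.3% and 49.7% in neutrophil-like cells, and after thinning to 2000 UMIs 21.2%, 21.5% and 32.8% against 19.8%, 24.0% and 24.5%.

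Within monocyte-like cells Fcgr4 and Fcgr1 were arranged in opposite directions. Non-classical cells, which patrol the vessel wall, were named from genes such as Ace and Treml4, and classical cells, which enter inflamed tissue, from genes such as Ccr2 and Ly6c2. At the finer clustering both subsets had at least 20 cells only in libraries 2 and 3, since library 1 kept 6 classical-like cells there. Another cluster of 213, 40 and 43 cells was led by Cd209a, but most of its 10 leading genes were those of classical cells, such as Fn1 and Ccr2, so it is called here by its leading gene. At the coarser clustering 193, 22 and 25 of its cells were classical-like and 20, 18 and 18 dendritic-like. In libraries 2 and 3, Fcgr4 stood at 722 and 497 CPM in non-classical-like cells, against 37.6 and 74.3 CPM in classical-like cells, 19.2-fold (15.8 to 23.4) and 6.69-fold (5.86 to 7.65) apart. Fcgr1 stood at 95 and 93.1 CPM in non-classical-like cells and 177 and 156 CPM in classical-like cells, ratios of 0.54 (0.41 to 0.70) and 0.60 (0.51 to 0.70). Of 9986 genes measured, 12.1% were higher and 6.47% lower in non-classical-like cells of both libraries by the same rule.

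Clusters at the coarser resolution split the monocyte-like cells of all 3 libraries, into 180, 67 and 210 non-classical-like and 225, 350 and 306 classical-like cells. This split was added after the data were seen, and 193 of its classical-like cells of library 1 belonged to the cluster led by Cd209a. Fcgr4 stood at 321, 962 and 581 CPM in non-classical-like cells and at 13.7, 45.0 and 88.2 CPM in classical-like cells, ratios of 23.4 (16.4 to 34.3), 21.4 (17.9 to 25.6) and 6.59 (5.85 to 7.43). Fcgr1 went the other way, at 40.9, 66.4 and 68.2 CPM in non-classical-like cells and 81.2, 183 and 158 CPM in classical-like cells. Fcgr4 was thus higher and Fcgr1 lower in non-classical-like cells within each library. Fcgr3, the low-affinity activating receptor CD16, was also lower in non-classical-like cells of this coarser split, at 169, 334 and 284 CPM against 332, 408 and 363 CPM, with ratios of 0.51, 0.82 and 0.78. At the finer clustering, in libraries 2 and 3, this Fcgr3 comparison did not meet the rule. At this resolution 10.2% of 10444 genes were higher and 4.46% lower in non-classical-like cells of all 3 libraries.

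**Figure D2:**
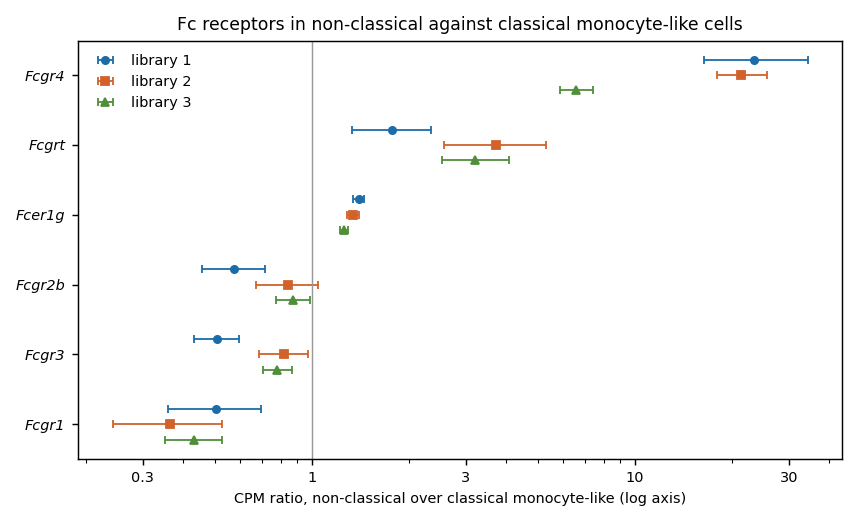
CPM ratio of non-classical to classical monocyte-like cells (log axis, line at 1) for 6 Fc receptors at the coarser clustering, 1 point per library with its exact 95% interval. Fcgr4 lies between 6.59 and 23.4 and Fcgr1 between 0.36 and 0.50.

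The same UMIs were also counted per cell, without thinning to a common depth. Of non-classical-like cells, 62.2%, 68.7% and 60.0% held UMIs of Fcgr4 and none of Fcgr1, and 3.89%, 0% and 2.86% held UMIs of Fcgr1 and none of Fcgr4. Of classical-like cells, 7.11%, 5.71% and 11.1% held Fcgr4 without Fcgr1, and 32.0%, 43.7% and 30.7% held Fcgr1 without Fcgr4. Cells with UMIs of both made up 13.3%, 26.9% and 29.5% of non-classical-like cells and 4.00%, 24.9% and 43.8% of classical-like cells. In library 3 they were the largest group of classical-like cells. Classical-like cells were sequenced more deeply, with medians of 10221, 11678 and 14559.5 UMIs. Non-classical-like cells had medians of 5877.5, 5999 and 6759 UMIs. These shares depend on depth, and cells without a UMI of either receptor were most frequent in library 1, at 20.6% and 56.9% of the non-classical- and classical-like subsets.

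**Figure D3:**
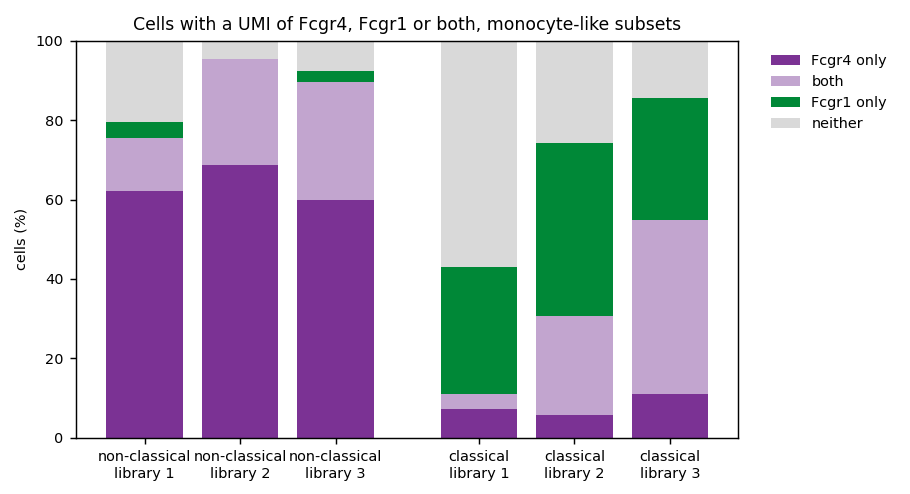
Share of cells (percent) with a UMI of Fcgr4 only, of both Fcgr4 and Fcgr1, of Fcgr1 only or of neither, in non-classical (left) and classical (right) monocyte-like cells of each library. Cells with Fcgr4 only make up 60.0% to 68.7% of the non-classical-like cells and 5.71% to 11.1% of the classical-like cells.

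Fcgr3 was highest in neutrophil-like cells and next in monocyte-like cells. Its level was 541 (505 to 579), 589 (575 to 603) and 590 CPM (576 to 605) in neutrophil-like cells, against 281, 401 and 341 CPM in monocyte-like cells, ratios of 1.92 (1.75 to 2.11), 1.47 (1.39 to 1.55) and 1.73 (1.65 to 1.82). NK-like cells, which use CD16 for antibody-dependent killing, followed at 57.5, 76.2 and 51.1 CPM. B- and T-like cells held at most 3.31 CPM, and their order was settled only in library 1, where T-like cells had 2.72 CPM and B-like cells 0.244 CPM. The lead over monocyte-like cells was not called under the strict cell filter, which left 13 neutrophil-like cells in library 1, under the minimum of 40. A UMI was found in 73.8%, 81.7% and 90.0% of neutrophil-like cells, and in 63.4%, 68.7% and 69.0% after thinning, against at most 1.19% of B-like cells unthinned.

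The level of Fcgr3 in neutrophil-like cells was nearly the same in the 3 libraries, with library 3 at 1.09-fold (1.02 to 1.17) library 1. In the same class 60.7% of all measured genes were at least 1.5-fold apart between libraries. This near-equality depended on the scaling. Under TMM, which moved log2 levels of neutrophil-like cells by 0.16, 0.90 and 1.09, Fcgr3 in library 3 was 2.09-fold (1.94 to 2.25) library 1. Summed neutrophil markers, led by very abundant S100 genes, took 150123, 309547 and 373560 CPM there. Their part in the CPM of other genes was not tested.

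Younger neutrophil-like cells, named from granule genes such as Ngp and Ltf, had lower CPM of 3 receptor genes than mature ones. The comparison rests on libraries 2 and 3, as library 1 held 1 younger cell. Nearly all mature cells of these libraries came from a single cluster. A cluster of 684 and 405 cells and another of 948 and 73 cells were named neither younger nor mature and are left out. Fcer1g stood at 2991 and 3226 CPM in the former and at 2607 and 2195 CPM in the latter. Fcer1g stood at 2225 and 2359 CPM in younger cells and 4619 and 4955 CPM in mature cells, a ratio of 0.48 in both libraries (0.46 to 0.51, and 0.45 to 0.50). Fcgr4 stood at 101 and 133 CPM in younger cells and 177 and 250 CPM in mature cells, and Fcgr3 at 450 and 575 CPM in younger cells and 645 and 697 CPM in mature cells, ratios of 0.70 and 0.82. Of 8060 genes, 21.7% were lower and 2.46% higher in younger cells of both libraries, so lower CPM was the common direction. With TMM scaling the median log2 ratio of Fcgr3 was 0.29 in place of -0.40, and Fcgr4 (-0.17) and Fcer1g (-0.37) were no longer called. Mature-named cells of library 1, which carried the platelet markers described above, had 2519 CPM of Fcer1g, 543 of Fcgr3 and 109 of Fcgr4, below the mature cells of libraries 2 and 3 for all 3 genes.

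**Figure D4:**
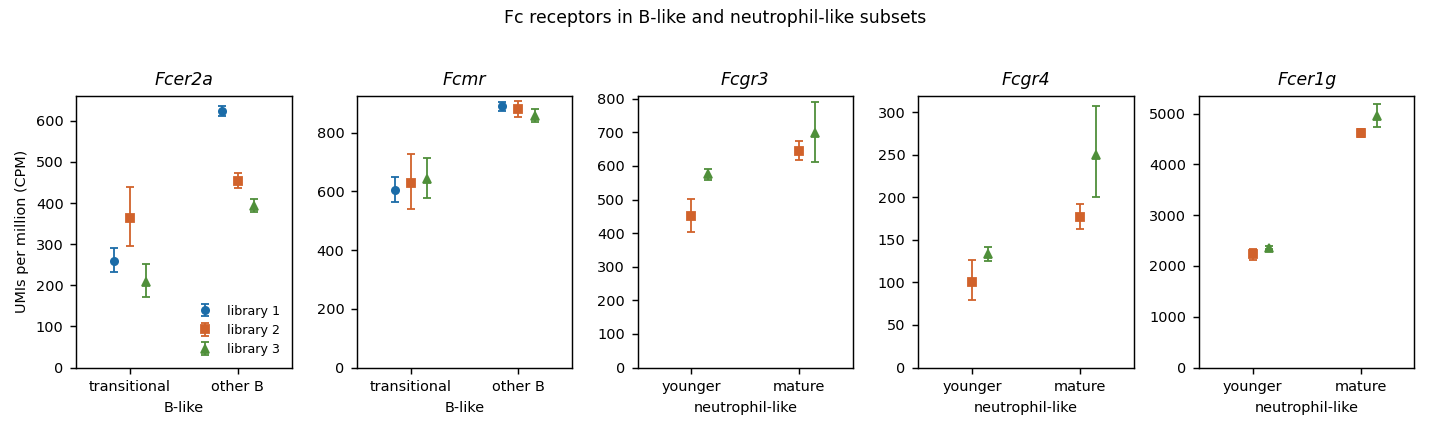
CPM (vertical axes from 0) of Fcer2a and Fcmr in transitional against other B-like cells and of Fcgr3, Fcgr4 and Fcer1g in younger against mature neutrophil-like cells, 1 point per library with its exact 95% Poisson interval; younger cells of library 1 were too few. In every panel the left subset lies below the right subset within each library plotted.

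Fcgr2b, the inhibitory IgG receptor, was highest in monocyte-like, next in B-like and then in NK-like cells in every library. Its level was 134, 238 and 228 CPM in monocyte-like cells, then 70.3, 69.7 and 65.6 CPM in B-like cells, then 40.4, 25.4 and 24.3 CPM in NK-like cells. Monocyte-like cells exceeded B-like cells 1.91-fold (1.70 to 2.13), 3.42-fold (3.03 to 3.86) and 3.47-fold (3.12 to 3.87), and B-like cells exceeded NK-like cells 1.74-fold, 2.74-fold and 2.70-fold with intervals above 1. Neutrophil-like cells had 9.66, 15 and 8.17 CPM and did not differ from NK-like cells beyond counting error in library 2. T-like cells were last, at 2.07, 0.301 and 1.70 CPM.

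Between libraries Fcgr2b differed in monocyte-like but little in B-like cells. Library 2 was 1.78-fold (1.59 to 1.98) library 1 in the monocyte-like class, and in B-like cells library 1 was 1.07-fold (0.96 to 1.20) library 3. Of 6 subset comparisons in which Fcgr2b was measured, 0 met the rule. Transitional B-like cells, the newest emigrants from bone marrow, had 87.0, 52.3 and 105 CPM of Fcgr2b and other B-like cells 68.3, 70.9 and 63.7 CPM, so that library 2 went against the other two. Dendritic-like cells ranged widely, at 29.7, 65.6 and 188 CPM from 11, 17 and 54 UMIs.

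The ratio of activating Fcgr3 to inhibitory Fcgr2b UMIs differed widely between the classes. It is given only for comparison between classes, since UMIs of different genes are not on a common scale. Neutrophil-like cells had 56.0 (33.8 to 101), 39.2 (33.7 to 45.8) and 72.3 (58.8 to 89.9) Fcgr3 UMIs per Fcgr2b UMI, against 2.10, 1.68 and 1.5 in monocyte-like cells. NK-like cells had 1.42, 3.00 and 2.11, with intervals overlapping those of monocyte-like cells in every library. B-like cells had 3, 15 and 19 UMIs of Fcgr3 against 866, 358 and 454 of Fcgr2b, ratios of 0.0035, 0.042 and 0.042. The dendritic-like class had 2.36, 0.24 and 0.31, so library 1 stood on the other side of 1 from libraries 2 and 3. In library 1, 23 of its 26 Fcgr3 UMIs lay in 21 cells that the finer clustering placed with effector or memory T-like cells.

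Fcer1g, the gamma chain that the activating receptors need, was detected in nearly every monocyte-, NK- and neutrophil-like cell. Its monocyte-like level was 3231, 3793 and 3529 CPM, beside 2992, 3224 and 2988 CPM for NK-like cells and 2514, 3226 and 2575 CPM for neutrophil-like cells. A UMI was found in at least 99.6% of monocyte-like, 98.8% of NK-like and 98.7% of neutrophil-like cells. The lead of monocyte-like cells over the next class was small, 1.08-fold (1.04 to 1.12), 1.18-fold (1.15 to 1.20) and 1.18-fold (1.13 to 1.23). In library 2 neutrophil- and NK-like cells did not differ beyond counting error, and with the TMM scaling described above neutrophil-like cells were highest in every library, at 2800, 6040 and 5480 scaled CPM, against 2753, 3380 and 3156 in monocyte-like cells. NK-like cells held Fcer1g at this level beside 0 UMIs of Fcgr4 and at most 1 UMI of Fcgr1 per library.

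Fcer1g differed between monocyte-like subsets in the direction of Fcgr4. It stood at 4688 and 4026 CPM in non-classical-like and 3681 and 3274 CPM in classical-like cells of libraries 2 and 3, ratios of 1.27 (1.22 to 1.33) and 1.23 (1.20 to 1.26). Among T-like cells, those with effector or memory markers had 159, 107 and 124 CPM and CD8-like cells 109, 49.7 and 52.2 CPM, ratios of 1.46 (1.21 to 1.75), 2.16 (1.35 to 3.39) and 2.39 (1.69 to 3.32). Of these cells 21, 10 and 7 were dendritic-like at the coarser clustering, and without them library 1 was at 1.07-fold (0.87 to 1.32), so the call was lost. By the same rule 2.98% of 9579 genes were higher and 1.3% lower in the effector or memory subset.

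The low Fcer1g of B- and T-like cells moved with platelet RNA. Platelets use the gamma chain together with their collagen receptor Gp6. B-like cells had 102, 71.8 and 64.8 CPM and T-like cells 117, 58.6 and 62.6 CPM, and in both classes library 1 was highest. In B-like cells with fewer than 5 UMIs of 10 platelet markers Fcer1g stood at 36.0, 40.2 and 33.9 CPM, in those with 5 to 19 at 83.9, 80.7 and 72.8 CPM, and in those with 20 or more at 132, 144 and 117 CPM. T-like cells had 61.2, 36.3 and 42.2 CPM in the lowest bin and 147, 96.7 and 127 CPM in the highest. Within a bin the B-like values of the 3 libraries had overlapping intervals, but the T-like values of the upper bins did not. T-like cells with 5 to 19 platelet UMIs had 79.4 CPM (70.0 to 89.7) in library 1 and 54.3 (46.1 to 63.5) in library 3. Those with 20 or more had 147 CPM (136 to 159) in library 1 and 96.7 (72.0 to 127) in library 2. The cluster with B cell markers and leading platelet genes had 238, 196 and 214 CPM. In monocyte-like cells a rise of the size seen in B-like cells would be small against the level. That level was 4219 and 3587 CPM in the lowest bin and 3608 and 3421 CPM in the highest in libraries 2 and 3. The Fcer1g call in effector or memory T-like cells was also lost when only cells at or below the median platelet share were used. The part of platelet RNA in these levels was not tested beyond these values.

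**Figure D5:**
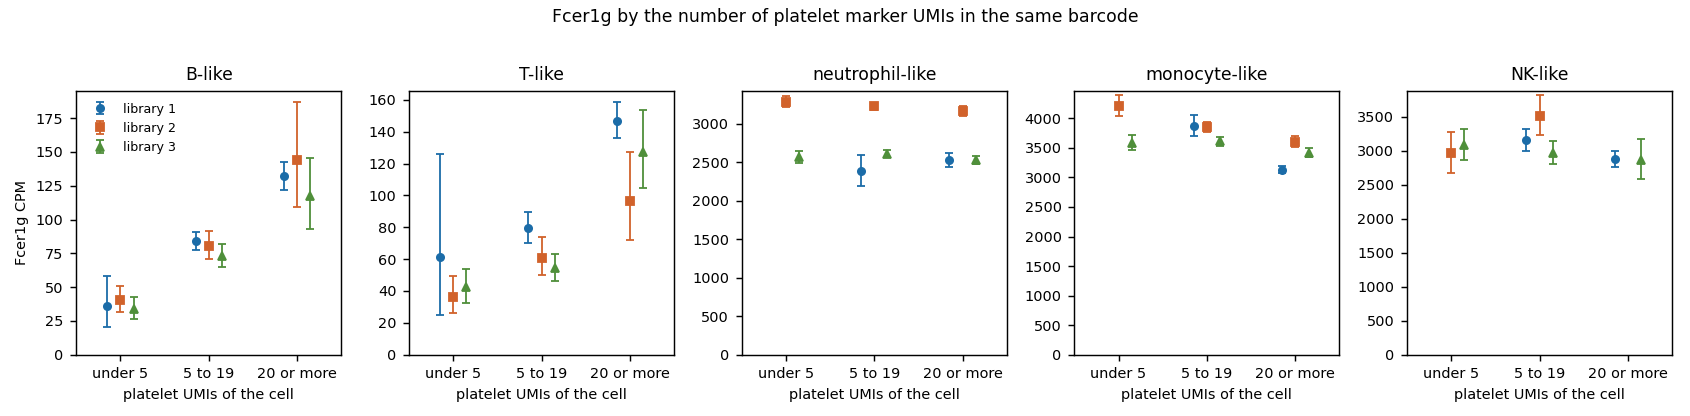
Fcer1g CPM (vertical axes from 0) by the number of platelet marker UMIs in the same cell, per class and library, with exact 95% Poisson intervals; bins with under 20 cells are not shown. In B-like cells the points go from 33.9 to 40.2 CPM in the lowest bin to 117 to 144 CPM in the highest. Neutrophil-like points lie between 2386 and 3290 CPM, a level beside which such a rise is small.

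Fcer2a, the low-affinity IgE receptor CD23 of mature B cells, and Fcmr, the IgM receptor, were both led by B-like cells by a wide margin. Fcmr stood at 873 (856 to 889), 868 (843 to 894) and 867 CPM (845 to 889) in B-like cells, and the libraries were within 1.01-fold (0.98 to 1.04) of each other. Fcer2a stood at 593 (579 to 607), 447 (429 to 465) and 371 CPM (357 to 386), with library 1 1.60-fold (1.53 to 1.67) library 3 and no overlap of intervals. By the 1.5-fold rule 9.52% of genes differed between libraries among B-like cells. A UMI of Fcmr was found in 89.2%, 88.5% and 86.3% of B-like cells and of Fcer2a in 78.7%, 72.3% and 65.2%, against at most 4.27% and 3.04% of T-like cells, which were sequenced more deeply. After thinning to 2000 UMIs the shares in B-like cells were 75.4%, 75.8% and 73.8% for Fcmr and 60.0%, 54.4% and 49.8% for Fcer2a.

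The difference between libraries in Fcer2a ran through the B-like cells and was not a matter of a single cluster. Over 9 B-like clusters at the finer resolution, library 1 was highest in 8 and library 3 lowest in 8, and the ratio of library 1 to library 3 ranged from 1.25 to 2.06 with a median of 1.65. For Fcmr the same ratio ranged from 0.85 to 1.12 with a median of 1.01, and for Fcgr2b from 0.79 to 1.82 with a median of 1.12. In the set-aside cluster with platelet genes Fcer2a was also highest in library 1 and lowest in library 3, at 584, 449 and 357 CPM. Fcmr was less even there, at 832 (810.2 to 855), 918 (840.1 to 1002) and 776 CPM (723 to 833). Both genes were lower in transitional B-like cells than in the other B-like cells of the finer clustering, which took in 1123, 98 and 157 cells of the set-aside cluster. Fcer2a stood at 260, 363 and 209 CPM in transitional and 625, 454 and 393 CPM in other B-like cells, ratios of 0.42 (0.37 to 0.46), 0.80 (0.65 to 0.97) and 0.53 (0.44 to 0.64). Fcmr stood at 606, 627 and 643 CPM in transitional and 890, 880 and 859 CPM in other B-like cells, ratios of 0.68, 0.71 and 0.75 with every interval below 1. By this rule 1.4% of 11115 genes were lower in transitional-like cells. The Fcer2a call rested on library 2 staying below 1 and was lost when called doublets were kept, at a still finer resolution and in the cells with fewer platelet UMIs.

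In the other 4 main classes both genes were low and highest in library 1. Neutrophil-like cells had 26.4, 1.75 and 2.42 CPM of Fcer2a and 22.5, 4.72 and 4.31 CPM of Fcmr, and monocyte-like cells 20, 2.23 and 2.64 CPM of Fcer2a and 35.5, 6.91 and 5.61 CPM of Fcmr. All 15 B cell markers were detected in neutrophil- and monocyte-like cells of every library as well. Their summed level was 791, 189 and 141 CPM in neutrophil-like cells and 981, 243 and 223 CPM in monocyte-like cells, against 20151, 19583 and 19475 CPM in B-like cells. Erythroid-like cells went the other way, lowest in library 1, with 25.4, 39.8 and 59.5 CPM of Fcer2a and 44.4, 74.9 and 144 CPM of Fcmr. The part of stray B cell RNA in these low receptor levels was not tested. The leads over the next class, 22.5, 200 and 115 for Fcer2a and 23.9, 126 and 155 for Fcmr, are therefore ratios to values at this low level. The order of the other 4 classes was mostly unsettled for both genes.

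Fcgrt, the heavy chain of the neonatal Fc receptor, was low, and its highest values lay outside the 5 main classes. Dendritic-like cells had 184 (143 to 233), 185 (136 to 245) and 185 CPM (139 to 242), from 68, 48 and 53 UMIs. Of these UMIs 67, 48 and 53 lay in the 20, 18 and 18 cells that the finer clustering placed in the cluster led by Cd209a, where the level was 276 (214 to 350), 249 (184 to 330) and 227 CPM (170 to 297). Monocyte-like cells had 58.6, 35.0 and 47.6 CPM and B-like cells 26.9, 36.4 and 32.1 CPM. Monocyte-like cells were 2.18-fold (1.83 to 2.60) and 1.48-fold (1.24 to 1.78) B-like cells in libraries 1 and 3, and in library 2 B-like cells were 1.04-fold (0.84 to 1.29) monocyte-like cells. T-like cells followed at 16.3, 11.1 and 18.3 CPM. Neutrophil-like cells held 1, 2 and 7 UMIs of Fcgrt and NK-like cells 1, 2 and 0, beside strong Fcer1g in both classes.

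Within monocyte-like cells Fcgrt, unlike Fcgr1, was higher in the non-classical-like subset. Non-classical-like cells had 79.2 and 84.2 CPM and classical-like cells 23.8 and 26.2 CPM in libraries 2 and 3, ratios of 3.33 (2.30 to 4.77) and 3.22 (2.51 to 4.15). The 22 and 25 cells of the cluster led by Cd209a that were monocyte-like at both clusterings held 21 and 9 UMIs, or 89.6 and 84.8 CPM, 3.77-fold (2.22 to 6.13) and 3.24-fold (1.44 to 6.40) the classical-like level. Fcgrt also separated T-like subsets, a comparison chosen after its values were seen. CD8-like cells held 68, 22 and 71 UMIs, or 21.7, 16.6 and 27.2 CPM, and CD4-like cells 15, 8 and 2 UMIs, or 4.47, 4.77 and 0.996 CPM. The ratio was 4.86 (2.75 to 9.15), 3.47 (1.49 to 9.01) and 27.3 (7.29 to 230), the last from 2 UMIs in CD4-like cells. By the same rule 2.91% of 10022 genes were higher and 2.73% lower in CD8-like cells. Effector or memory T-like cells had 35.0, 25.9 and 47.3 CPM.

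Over all subset comparisons, 15 of the 45 in which a member had at least 20 UMIs met the rule, 5 higher and 10 lower in the subset named first. With only cells of the same class at both clusterings, 13 did, since Fcer1g in effector or memory T-like cells and Fcgr3 in the cluster led by Cd209a lost the call. Each pair's share of all genes called is given above for monocyte-, neutrophil-, B- and T-like pairs. For the cluster led by Cd209a 4.17% of genes were higher and 4.22% lower than in classical-like cells, and 3.39% were higher and 6.39% lower than in non-classical-like cells. Interferon-signature B-like cells differed from other B-like cells in 0 of the receptors, beside 1.12% of genes higher and 0.0452% lower.

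The genes most like each receptor were taken by Pearson's r of log2(CPM + 1) over 15 points, the 5 classes in 3 libraries, among 11033 genes with at least 100 UMIs. The points share libraries and depth, and the values are descriptions. Fcgr1 was most like Msr1, Plcb1 and Adora2b (all 0.996), and Fcgr4 most like Tlr13 (0.996), Aph1c (0.99) and Hmox1 (0.99). Fcgr3 was most like S100a6 (0.99), Xdh (0.99) and Arpc1b (0.98), and Fcer1g most like Zfhx3, Map7d1 and Anxa2 (all 0.98). Ms4a1, which encodes the B cell antigen CD20, ranked highest for both Fcer2a and Fcmr (0.99), with Scd1 also among the likest for Fcer2a and Cd79b and Mzb1 for Fcmr. Other likeness values were those for Fcgr2b, with Il10ra (0.94) and Atf6 (0.94) among the likest, and for Fcgrt, with Hs6st1 (0.94), Cryl1 (0.93) and Plekho1 (0.93).

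Genes that work with the receptors were spread over all classes. Of 78 such genes on 7 lists 70 were measured, and 39 of these (55.7%) had a fixed leading class, beside 20.9% of all measured genes. They were 10 each in neutrophil-, monocyte- and B-like cells, 6 in NK-like and 3 in T-like cells. Of all measured genes 5.59%, 5.77%, 3.66%, 3.43% and 2.47% were led by these classes in the same order. The median over the 70 genes of the lowest ratio to the next class was 1.33, beside 1.15 over all measured genes. Some list genes are class markers (Lat, Ncr1, Klrb1c, Cd22, Lgals3 and Itgax), so their class is not independent of the naming.

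The counts of each list stand beside the 20.9% of all measured genes with a fixed class. Of 4 measured partner chains 3 had a fixed class (median lowest ratio 1.22). Tyrobp (DAP12), the other ITAM chain of myeloid and NK cells, was led by neutrophil-like cells at 6595, 5098 and 4051 CPM, Hcst (DAP10) by NK-like cells and Cd247, the T cell receptor zeta chain, by T-like cells, while B2m, the partner of Fcgrt, had no fixed class. Of 10 measured receptors that pair with the gamma chain 8 had a fixed class (median 7.38). The C-type lectins Clec4e and Clec4d, the paired receptor Pira2 and Cd300lf were led by neutrophil-like cells, Clec4a1 and Clec4a3 by monocyte-like cells, and the NK receptors Ncr1 and Klrb1c by NK-like cells. In monocyte-like cells Clec4a3 had 514, 576 and 544 CPM, and in NK-like cells Ncr1 had 894, 934 and 910 CPM. Of 6 measured relatives of the Fc receptors 4 were led by B-like cells (median 4.95), namely Fcrla at 351, 300 and 285 CPM, Fcrl1 at 120, 138 and 127 CPM, Fcrl5 and the polymeric immunoglobulin receptor Pigr, both below 11 CPM. Trim21, the cytosolic antibody receptor, and Fcnb had no call.

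Of 21 activating signal genes 10 (47.6%, beside 20.9% of all genes) had a fixed class. Their median lowest ratio was 1.15, the same as that of all genes when rounded. Among them Plcg2 and Prkcd were led by monocyte-like cells, Btk, Vav2 and Blnk by B-like cells, Plcg1 and Lat by T-like cells, Fyn by NK-like cells and Rac2 by neutrophil-like cells, whereas the kinases Syk and Lyn, which act directly on ITAMs, had no fixed class. Of 17 inhibitory genes 7 had a fixed class (median 1.11). Pirb and Lilrb4a were led by neutrophil-like cells, Cd300a and Lair1 by monocyte-like cells, Cd22 and Cd72 by B-like cells and Dok2 by NK-like cells. Inpp5d, the lipid phosphatase SHIP1 that Fcgr2b recruits, and Ptpn6 had no fixed class. Of 9 complement and phagocytic receptors 6 had a fixed class (median 1.93), Itgam and C5ar1 in neutrophil-like cells, Cd93 and Msr1 in monocyte-like cells, Cr2 in B-like and Itgax in NK-like cells. Of 4 measured genes on the list of CD23 related genes, Cr2 was led by B-like cells at 156, 118 and 107 CPM, with library 1 highest and library 3 lowest as for Fcer2a, and Lgals3 by monocyte-like cells (median of the 4 genes 1.76).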

How the data were processed

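The deposited values are raw UMI counts per gene and cell, in 1 matrix of 31053 genes. Per the file headers it was written by Cell Ranger 6.0.2, and per the submitters' processing notes the tools were Cell Ranger 4.0.0, Trimmomatic 0.39, R 4.0.2 and Seurat 3.0, with GRCm38 as build. Which Cell Ranger version set the counts was not settled. The rule by which barcodes passed as cells was not given in the sources used here.

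Kept cells had 200 genes or more, with mitochondrial UMIs at or below 10%. Doublets were called with Scrublet (scanpy 1.11.5; expected rate 6%) above a score of 0.25, used for every library, because the automatic threshold marked almost no cell in library 1, and were left out. Counts scaled to 10000 UMIs per cell and log-transformed gave 2000 variable genes, the 8 receptors left out, for clustering with 30 principal components, 15 neighbours and Leiden (leidenalg 0.10.2) at resolution 1 for classes and 2 for subsets, with no integration. For a class name, 3 of its markers had to be present in 20% of the cluster's cells or more, with a log2 fold over the rest of 0.5 or more. Raw UMIs were summed per class and library. Classes needed 40 cells, subsets 20 cells and genes 20 UMIs. A gene at 0 UMIs was set against a floor of 3 UMIs in ratios. No test between groups was possible, so intervals (scipy 1.17.1) cover counting error only. TMM scaling (edgeR 4.0.16) was an alternative to totals. The scripts were tested on simulated data. Named are the 8 members, the 3 genes most like each, and the genes of the 7 lists, of which a few are not reported here. Members, lists and rules were chosen with earlier results of these data known.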

Additional observations from a re-analysis of the deposited data

How the results depend on the processing

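The count of receptors with a fixed leading class was 6 and lay between 5 and 8 under the other cell filter, doublet treatment, clustering genes, weighting, UMI minimum, TMM scaling, clustering resolution and restriction to cells with fewer platelet UMIs. The last, the coarser subsets, the restriction of subsets to cells of 1 class at both clusterings and the leaving out of each library in turn were chosen after seeing the data. The count with a library spread of at least 1.5-fold was 4 and lay between 4 and 6 under the same settings, but was 0 without library 1 and 3 without library 2 or library 3. The 15 subset calls became 8 under the strict filter (at least 500 genes, at most 5% mitochondrial UMIs), 8 in cells at or below the median platelet share, 8 with coarser subsets, 6 without library 2 and 7 without library 3. With every cell weighing the same the count was 35, because that setting has no interval and asks only for the same direction. The lowest log2 lead became -1.14 for Fcgr4 with every cell weighing the same and -0.84 for Fcer1g with TMM scaling, and the younger to mature log2 ratio of Fcgr3 became 0.29 with TMM scaling, and beyond the change of scale or weight the cause was not tested. No paired analysis was possible because each group has 1 library and no label ties a library to a group. With 1 library per group, a difference between libraries cannot be told apart from differences between preparations or pools of mice. Levels of a few UMIs, such as Fcgr1 outside monocyte-like cells or Fcgrt in neutrophil-like cells, are limited by depth.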
